A study of Arabidopsis thaliana with 15 samples.

Results

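Mature guard cells, the paired epidermal cells that open and close each stomatal pore, are represented here by 4 genes of Arabidopsis thaliana. They are GC1 (AT1G22690), CHX20 (AT3G53720), BLUS1 (AT4G14480) and PME6 (AT1G23200). They were chosen by name, as the genes of a longer guard cell list that a probe set names alone, and each had 1 probe set. The choice was made with earlier results of these data known. These genes are 4 of 13350 that could be named. The gene table lists PME6 by its locus only, and the other 37 of 41 genes on the guard cell list had no probe set with a single gene name, so their levels were not analysed here. For every list below, a gene is called measured if a probe set names it alone. The array may hold others without such a name, or listed genes that were not found in the gene reference. The reference held 36 of 41 guard cell genes and 20 of 22 stomatal lineage genes. It held 26 of 28 cation/proton exchangers, 17 of 25 genes on the pectin methylesterase list and 21 of 22 on the abscisic acid list.

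Guard cells swell and shrink by moving potassium and its counter-ions across their membranes, and their walls must be stiff in some directions and yielding in others for the pore to open. Blue light starts opening through the phototropin photoreceptors, a kinase relay and a proton pump in the plasma membrane. GC1 encodes a small protein of the gibberellin-regulated (snakin/GASA) family, and its promoter is widely used to drive expression in guard cells. CHX20 is a cation/proton exchanger of internal membranes that takes part in guard cell osmoregulation. BLUS1 is a kinase that phototropins phosphorylate in the blue light response, and PME6 is a pectin methylesterase that removes methyl groups from guard cell wall pectin. FAMA is a transcription factor of the basic helix-loop-helix class that acts earlier, at the last division and differentiation of the lineage.

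The series holds 15 ATH1 arrays of whole seedlings, ecotype Columbia, in 5 groups of 3. After 5 days on MS medium with sucrose, at 22 °C and in constant light, seedlings were moved to 10 µM estrogen, which switches on the construct named by each label, or to fresh plates without it. The groups are uninduced controls at 4 h and at 48 h, FAMA induced for 4 h and for 48 h, and FAMA-EAR (FAMA joined to the EAR repression domain) induced for 48 h. The 4 h groups are labelled as 5 days old and the 48 h groups as 7 days old. Controls had no estrogen, so in each comparison with a control the estrogen and the construct cannot be told apart. Both 48 h constructs are compared with the same 3 controls. The labels name neither the line of the controls, nor how many transgenic lines were used, nor the cells in which the construct is active. Frozen material was gathered until there was enough for extraction within a week, and whether each array had a separate culture is unstated. The p-values therefore reflect variation among these arrays, which may be technical.

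The probe set for FAMA read 229.6 to 255.7 on the 6 control arrays, 11695.5 to 12830.6 at 4 h of FAMA and 16934.1 to 18576.3 at 48 h. With FAMA-EAR it read 2726 to 3456.5, so the construct was below FAMA in signal as well as different in kind. Signals are MAS5 values on a linear scale. The third FAMA 4 h array stood apart. Its lower quartile was 79.1, a value that lay at 39.6 to 48 on the other 14 arrays. The log2 differences of the 4 guard cell genes at 4 h are given with that array and without it. Medians of differences, shares of all probe sets, group means and correlations are given with it only. Of markers for the tissue, the mesophyll genes and the root gene PYK10 were bright on all arrays, while the lists for epidermis, vascular tissue and myrosin cells had no named probe set.

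In the uninduced seedlings GC1 was the 1 gene of the 4 with a called change between the younger and the older controls. GC1 read 2381.1, 2326.8 and 2101.2 in the controls at 4 h and 2757.9, 3129.3 and 3158.3 at 48 h, so each older array was above each younger one, as for 14.7% of all probe sets. GC1 rose by 0.41 on the log2(signal + 20) scale (standard error, SE, 0.107, adjusted p = 0.0212, limma). Among all 22746 probe sets tested, 3.37% were called higher. The call ended with array medians set equal (adjusted p = 0.0993) or variances moderated without a trend (adjusted p = 0.114). It also ended without the third 4 h control (adjusted p = 0.114), the second 48 h control (adjusted p = 0.0863) or the third (adjusted p = 0.0887).

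CHX20 read 211.5, 231.2 and 152.9 at 4 h and 170.7, 256.2 and 267.2 at 48 h in these controls. BLUS1 read 201.6, 240.4 and 188, then 141.4, 198.5 and 206.2. PME6 read 118.5, 77.8 and 86.9, then 79.1, 86.6 and 112. For these 3 genes the groups overlapped, with log2 differences of 0.20 for CHX20 (95% interval -0.18 to 0.57), -0.20 for BLUS1 (-0.60 to 0.20) and -0.02 for PME6 (-0.53 to 0.50). All intervals here are from the same limma fit and are not adjusted for the number of genes. The first 48 h control was the lowest of its group for all 4 guard cell genes, though not for FAMA.

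At 4 h of FAMA no guard cell gene had a called change. Against the 4 h controls 0 of 4 passed with limma, where 2.92% of all probe sets passed. With 4 genes, 0 calls is near that share. An unadjusted p under 0.05 was found for 0 of the 4, and no share of all probe sets is given for that count. GC1 read 2338.9, 3030.7 and 2246.1 on the FAMA arrays, and only the second was above every control. Its log2 difference was 0.15 (95% interval -0.07 to 0.37). BLUS1 read 200.6, 286.1 and 326.4, with a log2 difference of 0.32 (95% interval -0.08 to 0.72, adjusted p = 0.404). CHX20 read 206.4, 296.8 and 228.6, with 0.28 (-0.10 to 0.65). PME6 read 124.1, 101.2 and 60.5, the widest spread of any group for this gene, with -0.01 (-0.53 to 0.50). The median of the 4 differences was 0.21, beside 0.09 over all probe sets.

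Single arrays moved these 4 h values. Without the third FAMA 4 h array, where PME6 was lowest and BLUS1 highest of the 3, the log2 differences were 0.23 for GC1, 0.31 for CHX20, 0.18 for BLUS1 and 0.22 for PME6, and 0 of 4 passed. GC1 stood at 0.02 without the second FAMA 4 h array and at 0.10 without the third 4 h control. CHX20 stood at 0.14 and 0.12 on leaving out the same arrays, and BLUS1 at 0.51 without the first FAMA 4 h array.

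After 48 h of FAMA, GC1, CHX20 and BLUS1 had risen, and PME6 lay above its controls without passing the test. Called rises were 3 of 4, with 0 falls, where 10.6% of all probe sets were called higher. The median log2 difference of the 4 was 0.95, beside -0.02 over all probe sets. In whole seedlings several readings cannot be told apart. They include more guard cells, more RNA per guard cell, expression in other cells and a changed share of other tissues.

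GC1 read 11729.6, 9281.8 and 11394.2 after 48 h of FAMA. The lowest of these was far above the highest 48 h control, 3158.3. Its mean was 3.58 times the control mean, and the log2 difference of 1.83 (SE 0.107, 95% interval 1.61 to 2.05, adjusted p = 7.00e-11) was the 142nd highest of the 22746 probe sets.

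CHX20 read 458.4, 469.5 and 479.3, a range far narrower than in its controls (170.7 to 267.2), with no overlap. Its mean was 2.03 times that of the controls, with a log2 difference of 0.98 (SE 0.179, 95% interval 0.61 to 1.36, adjusted p = 0.000302). BLUS1 read 297.2, 410.2 and 378.9, all above the highest control at 206.2. Its mean was 1.99 times the control mean, a log2 difference of 0.92 (SE 0.192, 95% interval 0.52 to 1.32, adjusted p = 0.0011). The interval of GC1 lay above the intervals of CHX20 and BLUS1.

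PME6 read 120.8, 117 and 127.4, above each 48 h control, of which the highest was 112. The log2 difference was 0.34 (SE 0.246, 95% interval -0.17 to 0.86, adjusted p = 0.404). All 4 genes had groups that did not overlap, as did 19.1% of all probe sets in this direction. The interval of PME6 includes no change and also a rise near that of BLUS1, so its response was not resolved at this signal.

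**Figure D1:**
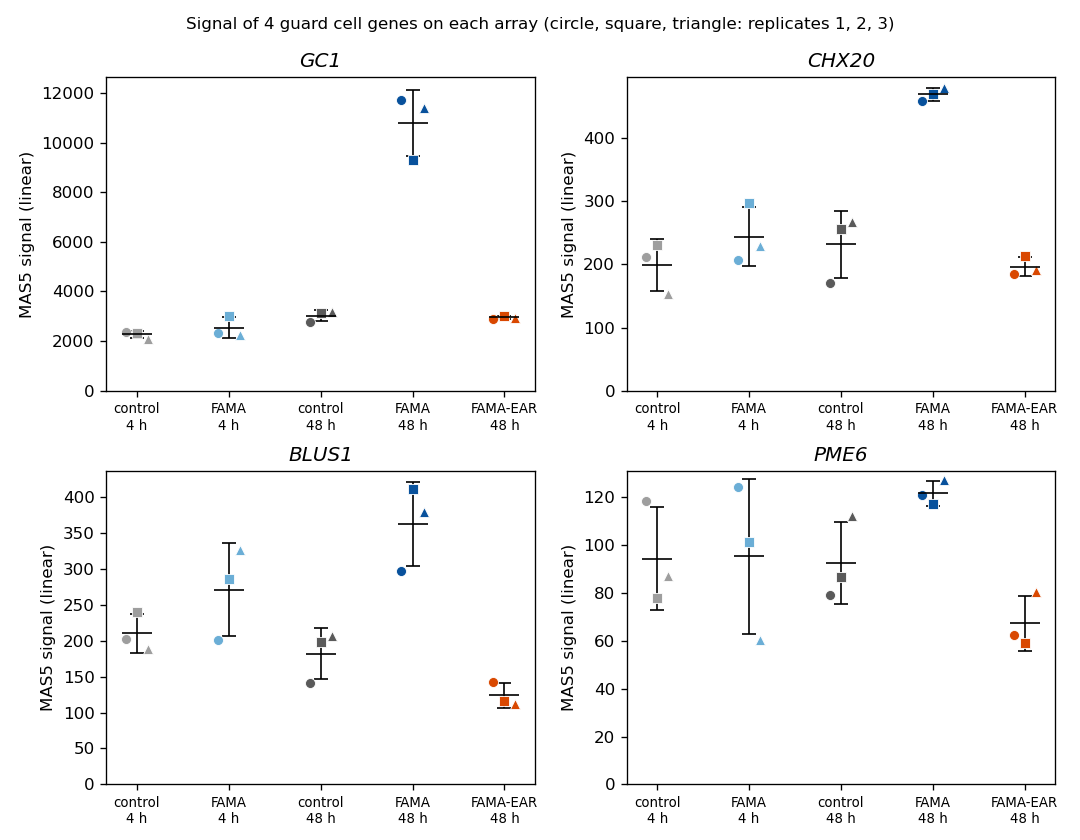
MAS5 signal (linear axis from 0) of GC1, CHX20, BLUS1 and PME6 on each of the 15 arrays, by group, with circles, squares and triangles for replicates 1, 2 and 3, the horizontal bar for the mean and error bars for the SD of 3 arrays. GC1 and CHX20 stand apart after 48 h of FAMA, at 9281.8 or more and 458.4 or more, and CHX20, BLUS1 and PME6 are lowest in mean with FAMA-EAR.

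The same 48 h comparison also parted the arrays in other ways, whose part in these rises was not tested. All 5 measured mesophyll genes were called lower, where 11% of all probe sets were, and their summed signal was 50701.2 to 51764.7 on the FAMA arrays against 78929.2 to 87030 on the controls. Of 3 root genes 1 was called lower, PYK10 (adjusted p = 1.76e-05, limma). The other root genes, EXPA18 and EXPA7, went the other way without a call, with log2 differences of 0.47 and 0.18. The summed signal of the root list, most of it PYK10, was 11358.8 to 13572.8 against 18876.3 to 21726.4. The array carries control probe sets at both ends of the actin and GAPDH transcripts, and a higher 3'/5' ratio marks poorer RNA. In log2 and averaged over both transcripts, the ratio lay between 0.191 and 0.214 after FAMA and between 0.297 and 0.495 in the controls. With the other set of actin and GAPDH controls on this array the groups overlapped, at 1.22 to 1.54 and 0.913 to 1.57.

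Whether the effect of FAMA was larger at 48 h than at 4 h was tested as a difference of differences. All 4 values were positive, and 1 of 4 passed, GC1, where 6.59% of all probe sets were higher. GC1 differed by 1.68 (SE 0.151, adjusted p = 1.52e-07), against a median of -0.14 over all probe sets. CHX20 differed by 0.71 (95% interval 0.18 to 1.24, adjusted p = 0.0708) and BLUS1 by 0.60 (0.04 to 1.17, adjusted p = 0.16), so a later or growing response is not established for them. PME6 differed by 0.36 (-0.37 to 1.08, adjusted p = 0.561). Without the third FAMA 4 h array the values were 1.60 for GC1, 0.67 for CHX20, 0.74 for BLUS1 and 0.12 for PME6, with GC1 alone called. CHX20 passed under 4 of 25 alternatives, namely an offset of 98.7 (adjusted p = 0.0476), a filter on dim probe sets (adjusted p = 0.0425), and without the third 4 h control (adjusted p = 0.0303) or the second FAMA 4 h array (adjusted p = 0.0312).

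**Figure D2:**
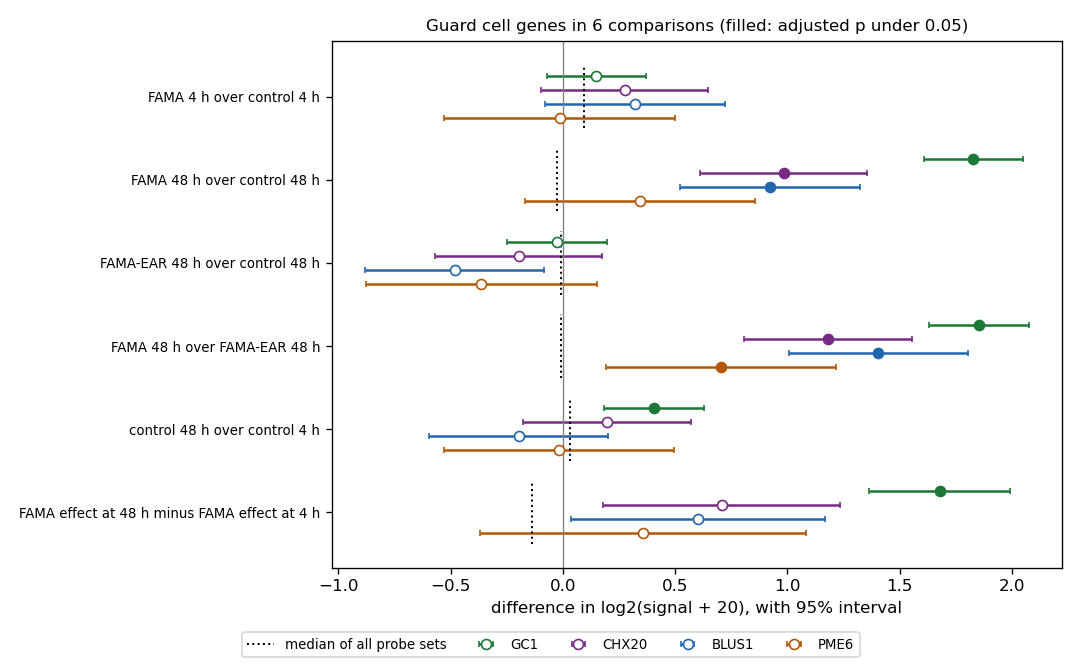
Differences in log2(signal + 20) of the 4 genes in 6 comparisons, with 95% intervals from the limma fit. Filled points passed an adjusted p of 0.05, open points did not, and dotted lines mark the median of all probe sets. The filled points are 3 of 4 for FAMA over control at 48 h, 4 of 4 for FAMA over FAMA-EAR, and GC1 alone for the older over the younger controls and for the difference between the times.

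With FAMA-EAR no rise of any of the 4 genes was called over the same 48 h controls. The log2 differences were all negative, 0 of 4 passed, and 3.2% of all probe sets passed in either direction. With 4 genes, 0 calls is near that share. GC1 read 2906.8, 3030.8 and 2937.6, inside the range of its controls, with a difference of -0.02 (95% interval -0.25 to 0.20). That interval excludes a rise of the size seen with FAMA. CHX20 read 184.6, 213 and 190.7, also inside the control range, with -0.20 (-0.57 to 0.18).

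BLUS1 read 143, 116.3 and 111.8 with FAMA-EAR, and only the first reached the lowest control, 141.4. Its mean was 68.0% of the control mean, with a log2 difference of -0.48 (SE 0.192, 95% interval -0.88 to -0.08). The unadjusted p was 0.0205 and the adjusted p = 0.214 (limma), so it is no call, and it passed under 0 of 25 alternatives. PME6 read 62.3, 59.3 and 80.5, and again 1 array reached the lowest control, at 79.1. Its difference was -0.36 (95% interval -0.88 to 0.15, adjusted p = 0.549). The median of the 4 was -0.28, beside -0.01 over all probe sets. The actin and GAPDH ratio parted these groups on both control sets, at 0.533 to 0.731 with FAMA-EAR against 0.297 to 0.495, and at 1.93 to 2.07 against 0.913 to 1.57. Its part in these differences was not tested.

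Set directly against FAMA-EAR, with estrogen and time the same, FAMA gave higher signals for 4 of 4 genes, where 11.1% of all probe sets were called higher. All 4 pairs of groups were without overlap, as were 20.5% of probe sets in this direction. GC1 was higher by 1.85 (SE 0.107, adjusted p = 3.98e-11) and its mean was 3.65 times that with FAMA-EAR. BLUS1 was higher by 1.41 (SE 0.192, adjusted p = 9.37e-06), 2.93 times in mean, and CHX20 by 1.18 (SE 0.179, adjusted p = 3.39e-05), 2.39 times in mean. These 3 calls held under all 25 alternatives. This comparison shares the FAMA arrays with the comparison over controls, so the 2 are not independent.

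PME6 was higher by 0.71 (SE 0.246, 95% interval 0.19 to 1.22, adjusted p = 0.0432), 1.81 times in mean. The call ended under 10 of 24 alternatives, among them an offset of 1 (adjusted p = 0.0536), equal array medians (adjusted p = 0.0805), quantile normalization (adjusted p = 0.14), and leaving out any FAMA 48 h array (adjusted p = 0.0913 to 0.125), the first or second FAMA-EAR array (adjusted p = 0.111 and 0.129) or the third 4 h control (adjusted p = 0.0555). The actin and GAPDH ratio parted these groups too, on both control sets, and was higher with FAMA-EAR. The 5 mesophyll genes were lower with FAMA here too, as were 11.6% of all probe sets. FAMA's own signal was 5.89 times higher in mean with FAMA than with FAMA-EAR. The part of either in the difference was not tested.

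**Figure D3:**
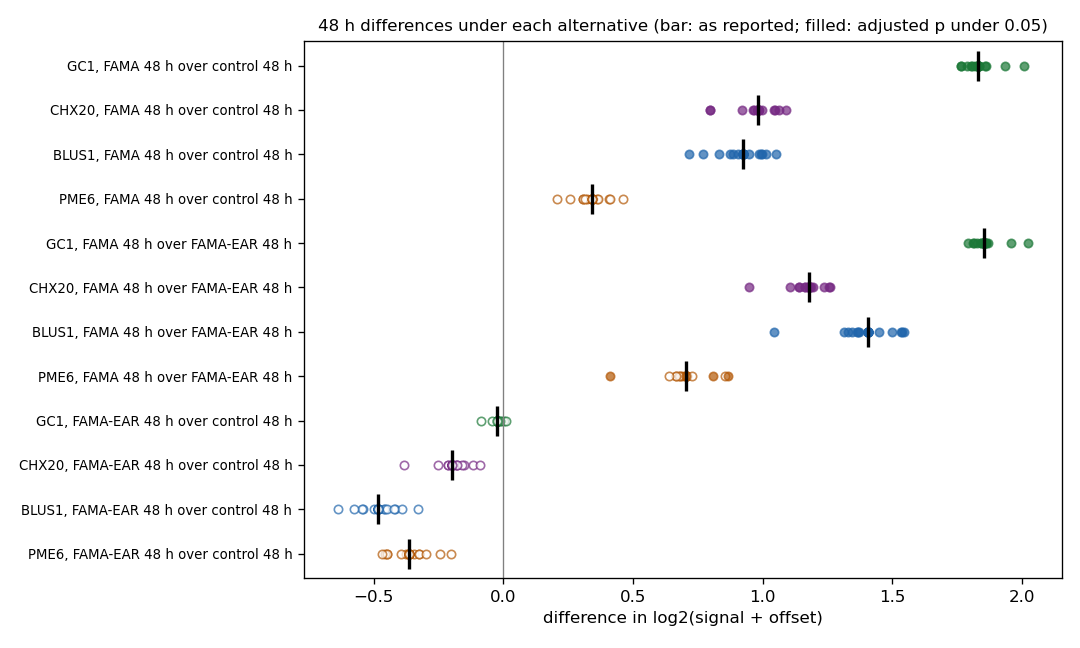
Differences in log2 signal of the 4 genes in the 3 comparisons at 48 h, as reported (black bar) and under each alternative (points, filled where the adjusted p was under 0.05). GC1, CHX20 and BLUS1 are filled throughout in both comparisons with FAMA, PME6 is filled under 14 of 24 alternatives against FAMA-EAR and under 0 of 24 against controls, and none is filled for FAMA-EAR over control.

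Over the 5 groups the order of the mean levels was not the same for the 4 genes. GC1 was lowest in the 4 h controls (2269.7 ± 148, SD, n = 3), followed by FAMA 4 h (2539 ± 429), FAMA-EAR 48 h (2958 ± 64.6), the 48 h controls (3015 ± 223) and FAMA 48 h (10802 ± 1327). Only the step to FAMA 48 h was free of overlap between neighbours. CHX20 had the same gap at the top, from 243.9 ± 47.1 (SD, n = 3) at FAMA 4 h to 469.1 ± 10.5 at FAMA 48 h, and the 4 lower groups, between 196.1 and 243.9 in mean, overlapped from each neighbour to the next.

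BLUS1 ran from 123.7 ± 16.9 (SD, n = 3) with FAMA-EAR through 182 ± 35.4 in the 48 h controls, 210 ± 27.2 in the 4 h controls and 271 ± 64.2 at FAMA 4 h to 362.1 ± 58.3 at FAMA 48 h. Each neighbour overlapped the next. PME6 had the same order in mean signal, from 67.4 ± 11.5 to 121.7 ± 5.26 (SD, n = 3), and all neighbours overlapped. Its 3 middle groups lay between 92.6 and 95.3 in mean with SDs of 17.2 to 32.2, so their order was not resolved. On the log2 scale FAMA 4 h (6.81) was below the 4 h controls (6.82).

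Across the 15 arrays, which fall into 5 groups, GC1 and CHX20 had the highest correlation of the 6 pairs, a Pearson r of 0.91 on the log2 scale. It was 0.69 after group means were removed, a value pooled over the 5 groups that need not hold in each. In the 48 h controls both genes were lowest on the first array and highest on the third. At 48 h of FAMA the first array was highest for GC1 and lowest for CHX20. CHX20 and BLUS1 had 0.79, and 0.60 within groups. GC1 and BLUS1 had 0.58, and 0.07 within groups, and the pairs with PME6 had 0.53 to 0.59, with -0.39 to 0.35 within groups. These values are descriptions of 15 arrays in 5 groups and have no test.

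The genes most like each member, by Pearson r of log2 signal over the 15 arrays among named probe sets brighter than the median, each had their highest group mean at 48 h of FAMA. Since the members have their own highest mean there, this follows in large part from the choice by r. For GC1 the nearest genes were AT2G05920 (0.98), PGL34, a gene of the plastoglobule protein family (0.97), and AT1G75760 (0.97). PGL34 had mean signals of 410.5 to 453.1 in 4 groups and 1882 at FAMA 48 h. Within groups their r with GC1 was 0.14 to 0.38, so the likeness lies mainly in the group means.

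For CHX20 the nearest were SETH3 (0.93), AT1G03440 (0.92) and AT1G30200 (0.92), and for BLUS1 AT3G21610 (0.93), AT3G46450 (0.92) and EXPA16 (0.90). EXPA16, an expansin that loosens cell walls, was also lowest in mean with FAMA-EAR (66.9) and highest at FAMA 48 h (5413), as BLUS1 was, yet its r with BLUS1 within groups was -0.07. For PME6 they were AT1G17500 (0.88), AT4G00295 (0.88) and AT5G16240 (0.85), and here r within groups was 0.77 to 0.87. These genes were picked for their r over the same arrays, so a high r within groups follows in part from the choice.

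Of 6 cation/proton exchangers measured out of 28 listed, 1 rose after 48 h of FAMA, CHX20, and 1 fell, CHX16, beside 10.6% higher and 11% lower over all probe sets. With 6 genes, 1 in each direction is near those shares. CHX16 read 133.7 in median in the 48 h controls (108.2 to 188.9) and 51.3 with FAMA (40.3 to 63.7), and fell by 1.17 on the log2 scale (SE 0.237, adjusted p = 0.000851). CHX15, CHX21 and CHX28 were at 15.7 or less on all arrays but the third FAMA 4 h array, where they read 46.3, 51.8 and 87.2. With FAMA-EAR 0 of the 6 passed over control, beside 3.2% of all probe sets. Against FAMA-EAR, CHX20 was higher and CHX16 lower with FAMA, the latter by a log2 difference of -0.77 (adjusted p = 0.0209). CHX16 lost that call on leaving out the first FAMA 48 h array (adjusted p = 0.0985), the third (adjusted p = 0.0554) or the first FAMA-EAR array (adjusted p = 0.0972).

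Of 25 listed genes for pectin methylesterases and their inhibitors, 3 were measured, PME6 among them. After 48 h of FAMA 0 of the 3 rose and 1 fell, beside 10.6% higher and 11% lower over all probe sets. ATPMEPCRB, a pectin methylesterase gene also named PME41, fell by 1.05 (SE 0.161, adjusted p = 4.40e-05), from 359.9 to 165.4 in mean, and fell by 1.05 at 4 h as well (adjusted p = 0.000764, and 0.00416 without the third FAMA 4 h array). With FAMA-EAR it fell by 0.77 (adjusted p = 0.0089), but not significantly on leaving out the second FAMA-EAR array (adjusted p = 0.0706). Between the uninduced controls it fell by 1.30 from 4 h to 48 h (adjusted p = 1.82e-05), a step in which PME6 stood at -0.02. Against FAMA-EAR, 1 of the 3 genes was higher with FAMA, PME6, and 0 were lower, beside 11.1% higher and 11.6% lower over all probe sets. These values stand side by side, and the difference between the genes was not tested.

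**Figure D4:**
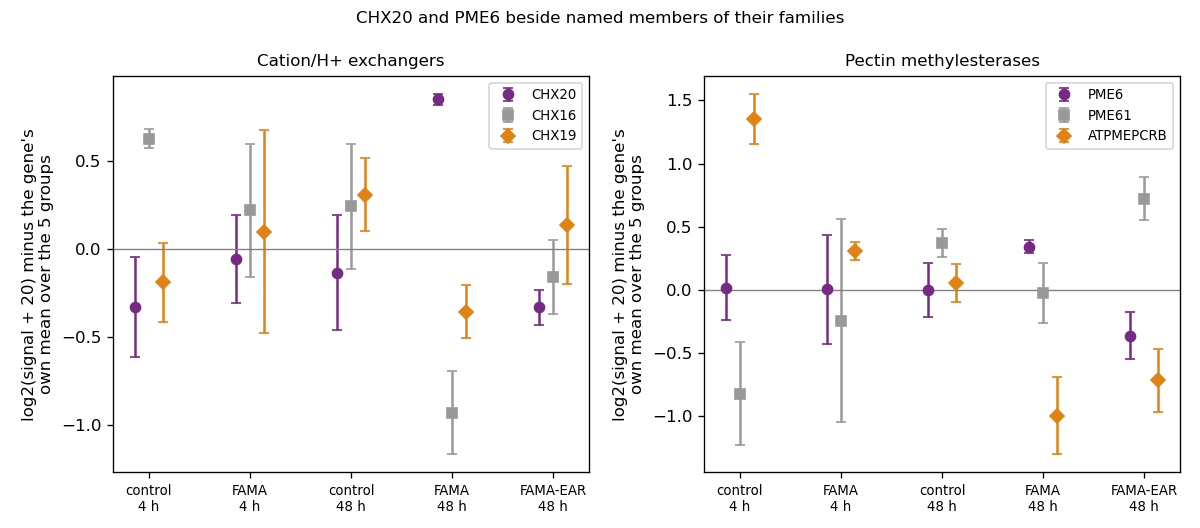
Group means of log2(signal + 20), each gene set to its own mean over the 5 groups, with the SD of 3 arrays, for CHX20 with CHX16 and CHX19 (left) and PME6 with PME61 and ATPMEPCRB (right). CHX19 and PME61 are drawn because they are the other members above a signal of 20 on every array. At FAMA 48 h CHX20 and PME6 lie above 0, and CHX16 and ATPMEPCRB lie below.

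Of the stomatal lineage list, which covers steps before the mature guard cell, 3 of 22 genes were measured besides FAMA. Of these, 0 rose and 2 fell at 48 h of FAMA, beside 11% lower over all probe sets. SPCH, the factor that starts the lineage, read 231.9 to 255.5 on the controls and 109.5 to 176.2 with FAMA, and fell by 0.76 (SE 0.193, adjusted p = 0.00573). STOMAGEN, a mesophyll peptide, fell by 0.83 against its 48 h controls (adjusted p = 5.64e-06). Between the uninduced controls it rose by 0.80 from 4 h to 48 h (adjusted p = 4.10e-05), where 3.37% of all probe sets were called higher. Its mean was 473.4 and then 841.9 in those controls and 464 at 48 h of FAMA, so it fell against a control level that had risen. SPCH stood at 0.43 in that step, without a call. SPCH and STOMAGEN were also called lower with FAMA than with FAMA-EAR, as were 11.6% of all probe sets. The third gene, MUTE, was dim, at 56.3 or less on all arrays. It stood at -0.65 over control and -0.39 against FAMA-EAR, both without a call. With FAMA-EAR 0 of the 3 passed over control, beside 3.2% of all probe sets.

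Of 14 blue light signalling genes BLUS1 alone had a probe set with a single gene name, and of 15 genes of the snakin/GASA family GC1 alone. Of these 2 lists, 11 and 8 genes were found in the gene reference. Of 22 genes of the response to abscisic acid and drought, 2 were measured. At 48 h of FAMA COR15A rose by 1.04 (adjusted p = 0.0175, limma) and COR47 fell by 0.26 (adjusted p = 0.026), so the list gives no common direction to set beside the guard cell genes. Over all probe sets 10.6% were called higher and 11% lower. The first call ended under 4 of 25 alternatives and the second under 7 of 25, among them leaving out the third 48 h control (adjusted p = 0.135 for COR15A and 0.0746 for COR47) or the third FAMA 48 h array (adjusted p = 0.129 and 0.143). With FAMA-EAR, COR15A stood at 0.90 over control (adjusted p = 0.133). COR47 rose by 0.39 (adjusted p = 0.0101, lost under 4 of 25 alternatives), beside 3.2% of all probe sets called. FAMA over FAMA-EAR was 0.14 for COR15A (adjusted p = 0.839) and -0.66 for COR47 (adjusted p = 3.70e-06), beside 11.6% called lower. At 4 h of FAMA COR15A was higher by 1.19 (adjusted p = 0.0386), beside 2.92% called. That call ended under 10 of 25 alternatives. Among them were leaving out the third FAMA 4 h array (adjusted p = 0.0519), the first (adjusted p = 0.132) or any 4 h control (adjusted p = 0.0829 to 0.131). It also ended with no variance trend (adjusted p = 0.173).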

How the data were processed

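The deposited values are MAS5 signal intensity, 1 per probe set and array, on a linear scale. The authors used MAS5, per the submitters' processing notes, and its version and scaling target are not stated there. The mean of each array without its lowest and highest 2% was 500.04 to 500.048, so arrays were scaled to a common level. The files hold no counts, and the number of arrays limits the precision.

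Of 22810 probe sets, 64 controls were left out. The log2 of signal + 20 was fitted in limma 3.58.1 (R 4.3.3), with 1 mean for each of 5 groups over all 15 arrays, 10 residual degrees of freedom, variances moderated with a trend, and two-sided p-values adjusted by Benjamini-Hochberg over 22746 probe sets at a threshold of 0.05. An exact test of 3 arrays against 3 cannot go below p = 0.1. A fold on this scale understates changes of dim genes.

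Genes were named from a probe table matched to TAIR10.1: 13513 probe sets name 1 gene, 503 several, and 8730 tested ones none. The members and the 12 gene lists were chosen with earlier results of these data known, and no set test was run. Named genes are the 4 members, FAMA, of each list at most the 4 largest called changes, and for each member the 3 genes with the highest correlation. CHX15, CHX19, CHX21, CHX28, PME61, EXPA7, EXPA18 and MUTE were added after their values were seen. Positions in TAIR10.1 are chromosome 1, 8027126 to 8028168 for GC1, chromosome 3, 19905591 to 19910244 for CHX20, chromosome 4, 8329906 to 8331864 for BLUS1, and chromosome 1, 8227133 to 8229661 for PME6. Promoter and protein sequences were not used here. Alternatives changed the offset, scaling, filter, arrays fitted, variance trend, weights and replicate block, or left out each array in turn. Figures were drawn with matplotlib 3.10.9 (Python 3.11.15).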

Additional observations from a re-analysis of the deposited data

Results flagged for a closer look

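The effect of FAMA on GC1 differed between the times by a test of the difference itself: 0.15 at 4 h and 1.83 at 48 h on the log2 scale, a difference of 1.68 (SE 0.151, adjusted p = 1.52e-07, limma). On every FAMA array at 48 h GC1 was above every control. The 2 times have separate controls, and the difference lay between 1.59 and 1.81 over 25 alternatives. Groups of 3 arrays are too small for a test of single outlying arrays.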

How the results depend on the processing

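Of 24 values (4 guard cell genes in 6 comparisons), 18 kept their direction and their side of the threshold under every alternative run, and PME6 had 1 alternative fewer, since a filter at the 40th percentile of mean signal removes it. The 3 calls at 48 h of FAMA over control held throughout. Over 25 alternatives the differences were 1.77 to 2.01 for GC1, 0.80 to 1.09 for CHX20 and 0.71 to 1.05 for BLUS1. The count of guard cell genes called was 0 for the controls' 48 h over 4 h with equal array medians and with no variance trend, and 0 to 1 with 1 array left out. For the difference between the times the count was 2 with an offset of 98.7 and with the filter on dim probe sets, and 1 to 2 with 1 array left out. Values near 0 changed sign, all without a call. PME6 at 4 h of FAMA was 0.21 with array weights, and with 1 array left out it ran from -0.20 to 0.22 (0.13 without the first 4 h control). GC1 with FAMA-EAR was 0.00319 when the second 48 h control was dropped and 0.0098 when the third was, in a range of -0.0873 to 0.0098. For the controls' 48 h over 4 h, PME6 was 0.0518 with array weights and -0.14 to 0.13 with 1 array left out (0.13, 0.07 and 0.02 on leaving out the first 4 h, first 48 h and second 48 h control). FAMA was 0.00103 after quantile normalization, and -0.0559 to 0.0256 with 1 array left out (0.0138, 0.00327 and 0.0256 on leaving out the first 4 h control, the second 4 h control and the third 48 h control). Causes of these changes were not tested.

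With the replicate number as a block (replicate block), the PME6 difference between FAMA and FAMA-EAR, 0.71, had an adjusted p of 0.0544 and no longer passed, and no other call on the 4 genes changed. Deviations from group means of same-numbered arrays had correlations of -0.06 to 0.04 over 30 pairs. Whether same-numbered arrays share a culture or extraction is unstated, and these correlations cannot settle it. Counts over all probe sets moved by over 1.5 times in 3 comparisons: FAMA at 4 h, 664, ran from 207 (only the arrays compared) to 1077 (without the second FAMA 4 h array), FAMA-EAR over control, 729, from 322 (no variance trend) to 1217 (array weights), and the controls over time, 1633, from 941 (no variance trend) to 2653 (array weights).

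MAS5 detection calls were not used here, so whether PME6 was above background on an array is not known, and its spread limits what these arrays can show.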
